A study of Gallus gallus with 4 samples.

Results

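The 10 genes described here encode the classical major histocompatibility complex (MHC) molecules of the chicken and proteins that load peptides onto them. They were taken by name from a table of 26296 genes: BF1, BF2, B2M, TAP1, TAP2 and TAPBP of the class I pathway, and BLB1, BLB2, CD74 and DMB2 of the class II pathway. BLB2 is listed in the table as LOC101747454, which RefSeq names BLB2. All 10 were present and all 10 had enough reads to be tested. The set was chosen by gene function with the log2 fold changes (hydrogen sulfide over control) of these same libraries already known. Differences between those groups are therefore given for the 10 genes as a description and not as a test.

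RNA came from the trachea of chickens 42 days old. The 2 hydrogen sulfide (H2S) libraries came from birds housed with 3.5 to 4.5 mg/kg of the gas during weeks 0 to 3, raised to 19.5 to 20.5 mg/kg for weeks 4 to 6. The 2 control libraries came from birds given no gas. Exposed and control birds were housed apart, so an effect of the housing and one of the gas cannot be told apart. The labels give no breed, sex or MHC haplotype, and do not say how many birds a library holds, so the spread between libraries may be partly technical.

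MHC class I molecules carry peptides from inside the cell to the surface, where CD8 T cells read them. The heavy chain pairs with beta-2 microglobulin and is filled in the endoplasmic reticulum with peptides that the TAP transporter brings in. MHC class II molecules carry peptides from the endosome and are read by CD4 T cells. They are made mainly by B cells, dendritic cells and macrophages, and the invariant chain keeps their groove closed until the DM proteins help to exchange it for peptide. In the chicken most of these genes lie close together in the small B locus, where BF2 is known as the more strongly expressed class I heavy chain gene.

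Levels are read counts per 1000000 after TMM scaling of the libraries (TMM CPM). All 10 genes stood lower in both H2S libraries than in both control libraries. The log2 fold changes, H2S over control, ran between -1.95 for BF2 and -0.64 for B2M, with a median of -1.04, against a median of 0.01 over the 16545 genes tested. Of those genes, 17.2% were lower in both H2S libraries than in both controls. No member had an adjusted p under 0.05 in edgeR's quasi-likelihood test, where 0% of all genes were called. DESeq2 called 3 of the 10, BF1, BF2 and BLB2, with 0.83% of all genes called, and limma-voom called 0. Nothing is read from these member counts, because the members were chosen with this contrast known.

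**Figure D1:**
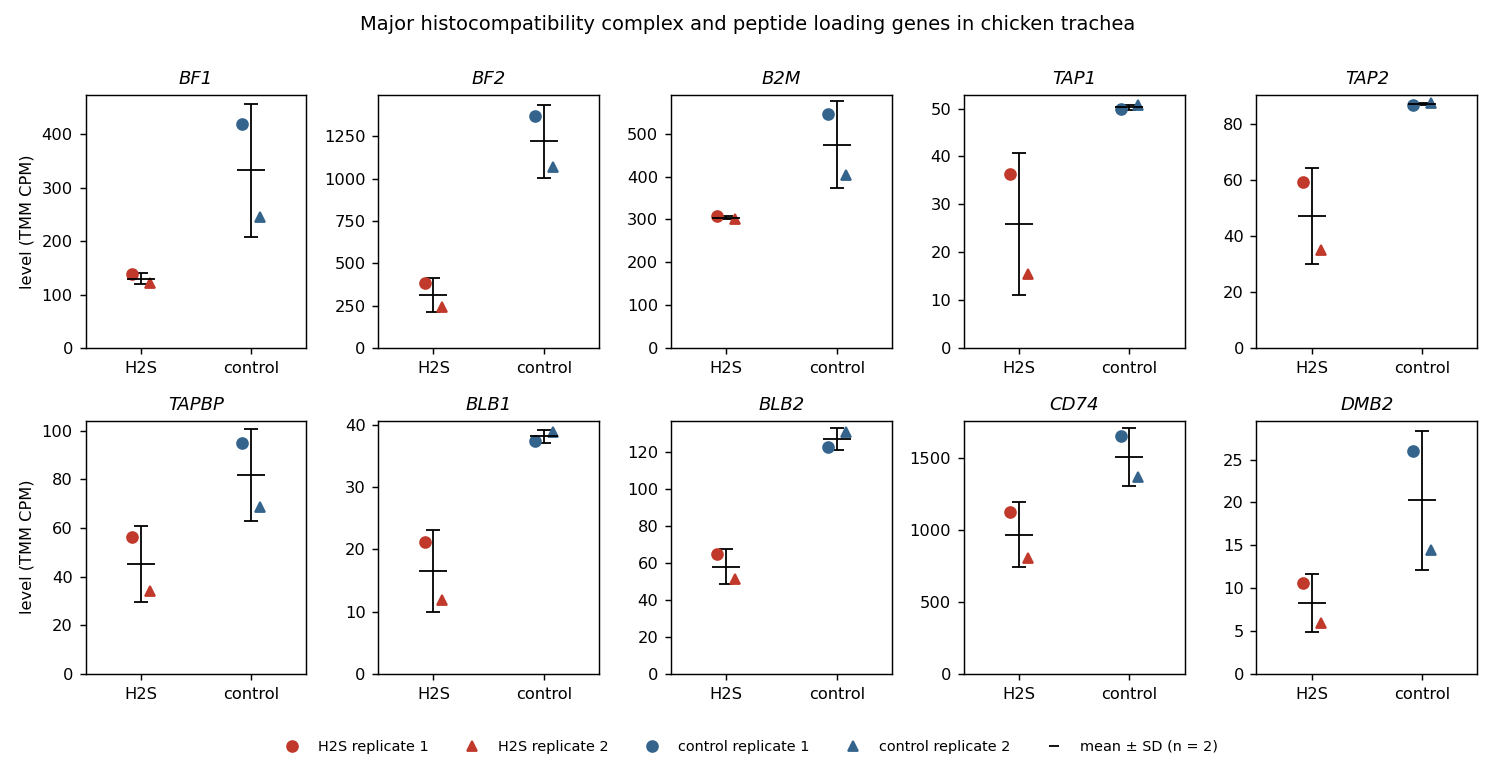
Level of each of the 10 genes in each library, in TMM-scaled CPM (linear axes from 0), with H2S libraries left of controls and the mean ± SD (n = 2) of each group. In every panel both H2S libraries lie below both controls, and H2S replicate 2 is the lowest of the 4 libraries.

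The class I heavy chain genes BF2 and BF1 encode the chain that holds the peptide. BF2 had 388 and 244 TMM CPM in H2S replicates 1 and 2, against 1369 and 1068 TMM CPM in control replicates 1 and 2. These levels rest on 8378 and 5408 reads in the H2S libraries, against 25122 and 18119 reads in the controls. The higher H2S library was far below the lower control, and the log2 fold change was -1.95 (SE 0.33), a level 3.85-fold lower in the exposed tracheas. BF1 had 138 and 123 TMM CPM in the H2S libraries, against 420 and 245 TMM CPM in the controls. Its H2S libraries were close together and its controls differed 1.72-fold, with no overlap between the groups. The log2 fold change of BF1 was -1.35 (SE 0.30), and it was -0.90 without control replicate 1 and -1.70 without control replicate 2.

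B2M encodes beta-2 microglobulin, the small chain shared by all class I molecules. It had 307 and 302 TMM CPM in the H2S libraries, against 546 and 402 TMM CPM in the controls. The H2S libraries were nearly alike, and both stood below the controls, by -0.64 on the log2 scale (SE 0.22), or -0.40 without control replicate 1. The log2 fold change of the light chain gene was nearer 0 than that of either heavy chain gene. In these bulk samples fewer cells of a type and less RNA per cell cannot be told apart.

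TAP1 and TAP2 encode the subunits of the peptide transporter, and TAPBP encodes tapasin, which bridges the transporter and the class I molecule. TAP1 had 36.4 and 15.4 TMM CPM in the H2S libraries, against 49.9 and 50.6 TMM CPM in the controls. The controls were almost equal, while H2S replicate 1 stood 2.36-fold above H2S replicate 2. The log2 fold change of TAP1 was -0.96 (SE 0.43), and it was -0.47 without H2S replicate 2 and -1.70 without H2S replicate 1. TAP2 had 59.5 and 35.1 TMM CPM in the H2S libraries, against 87.0 and 87.5 TMM CPM in the controls (log2 fold change -0.88, SE 0.29). It showed the same shape as TAP1, with equal controls and a 1.70-fold gap between the H2S libraries, and without H2S replicate 2 its log2 fold change was -0.55. TAPBP had 56.2 and 34.1 TMM CPM in the H2S libraries, against 95.1 and 68.6 TMM CPM in the controls (log2 fold change -0.86, SE 0.31), and its log2 fold change was -0.54 without H2S replicate 2. Over the 6 class I and loading genes, the median log2 fold change was -0.92. It was -1.37 without H2S replicate 1 and -0.59 without H2S replicate 2.

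Of the class II genes, BLB1 and BLB2 encode the polymorphic beta chains. BLB2 had 64.5 and 51.1 TMM CPM in the H2S libraries, against 122 and 131 TMM CPM in the controls. Both groups were tight and well apart, and its log2 fold change of -1.13 had the smallest standard error of the 10 genes (SE 0.18). The value for BLB2 was -1.31 without H2S replicate 1 and -0.97 without H2S replicate 2. BLB1 had 21.2 and 11.9 TMM CPM in the H2S libraries, against 37.4 and 38.9 TMM CPM in the controls (log2 fold change -1.20, SE 0.32). Its controls were close together and its H2S libraries differed 1.79-fold. The log2 fold change of BLB1 was -1.68 without H2S replicate 1 and -0.85 without H2S replicate 2.

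CD74 encodes the invariant chain, and DMB2 the beta chain of the DM peptide exchange protein. CD74 had 1129 and 810 TMM CPM in the H2S libraries, against 1655 and 1369 TMM CPM in the controls. The groups did not overlap, and the log2 fold change was -0.64 (SE 0.30), next to that of B2M the smallest of the set, and -0.42 without H2S replicate 2. DMB2 had 10.6 and 5.88 TMM CPM in the H2S libraries, against 26.0 and 14.5 TMM CPM in the controls. Each group spread about as widely as the other, by 1.81-fold in the H2S libraries and 1.79-fold in the controls, with a log2 fold change of -1.29 (SE 0.44) that was -0.81 without control replicate 1. Over the 4 class II genes, the median was -1.17. It was -1.49 without H2S replicate 1 and -0.89 without H2S replicate 2.

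The H2S libraries differed from each other in the same direction in all of these genes, and the controls did not. H2S replicate 2 was below H2S replicate 1 for 10 of 10 members, where 52.6% of all tested genes were. Control replicate 2 was below control replicate 1 for 6 of 10 members, where 50.8% of all tested genes were. The mean of the members' log2 CPM, centred on each gene's own mean, was -0.25 in H2S replicate 1 and -0.86 in H2S replicate 2, against 0.71 and 0.41 in control replicates 1 and 2. The heavy chain genes BF1 and BF2 stood at -0.61 and -1.03 in the H2S libraries, against 1.10 and 0.53 in the controls. The loading genes TAP1, TAP2 and TAPBP stood at -0.030 and -0.93 in the H2S libraries, against 0.56 and 0.41 in the controls. Together with B2M, the class I and loading genes averaged -0.27 and -0.86 in the H2S libraries, against 0.73 and 0.40 in the controls. The class II genes stood at -0.23 and -0.85 in the H2S libraries, against 0.66 and 0.42 in the controls. The averages of the 2 classes were close, while the heavy chain genes spread more widely over the libraries than the loading genes. Reads of W-linked genes, which only hens carry, came to 473 and 147 per 1000000 reads in H2S replicates 1 and 2, against 143 and 490 per 1000000 reads in control replicates 1 and 2. H2S replicate 1 and control replicate 2 were thus the libraries with the high W share. All 10 members were higher in the high W library of the H2S group, and 4 of 10, TAP1, TAP2, BLB1 and BLB2, in that of the controls, where the values of these 4 were close together. The part of the W split in the gap between the H2S libraries was not tested.

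Ratios between genes within a library do not depend on how libraries are scaled. Their size depends on gene length and is not read here, only their difference between libraries. BF2 over B2M was 1.26 and 0.811 in the H2S libraries, against 2.51 and 2.65 in the controls, a log2 difference of -1.35. BF1 over B2M was 0.450 and 0.407 in the H2S libraries, against 0.769 and 0.608 in the controls. Both heavy chain genes thus stood lower relative to the light chain gene in each H2S library. BF2 over TAP2 was 6.52 and 6.97 in the H2S libraries, against 15.7 and 12.2 in the controls. BF2 over TAP1 was 10.7 and 15.8 in the H2S libraries, against 27.4 and 21.1 in the controls.

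BF2 was also lower relative to the class II genes BLB2 and CD74. Its log2 fold change was the lowest of the set, so a lower ratio of BF2 to another member restates that value. BF2 over BLB2 was 6.01 and 4.78 in the H2S libraries, against 11.2 and 8.17 in the controls, a log2 difference of -0.83. BF2 over CD74 was 0.343 and 0.302 in the H2S libraries, against 0.827 and 0.780 in the controls. CD74 over BLB2 ran the other way, at 17.5 and 15.8 in the H2S libraries, against 13.5 and 10.5 in the controls. In all of these ratios the H2S and control libraries did not overlap. The ratios with BF2 share that gene, so they are not separate results. With 2 libraries a group an exact permutation test of a ratio cannot give a p under 0.333, and none was run on these chosen pairs.

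The pair BF1 and BF2 and the pair BLB1 and BLB2 differed in how they shared reads. BF2 took 73.7% of the reads of BF1 and BF2 in H2S replicate 1 (95% Wilson interval 72.9 to 74.5) and 66.6% in H2S replicate 2 (65.5 to 67.6). It took 76.5% in control replicate 1 (76.1 to 77.0) and 81.4% in control replicate 2 (80.8 to 81.9). All 4 shares differed by more than counting error, and both H2S shares were below both control shares. BLB1 took 24.8% (22.9 to 26.8) and 18.9% (16.9 to 21.0) of the reads of BLB1 and BLB2 in the H2S libraries, against 23.4% (21.9 to 25.0) and 22.9% (21.4 to 24.5) in the controls. Here H2S replicate 2 stood alone and the groups overlapped. The intervals cover counting error only, and how reads that fit both genes of a pair, or alleles unlike the reference genome, were counted is not stated in the sources.

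**Figure D2:**
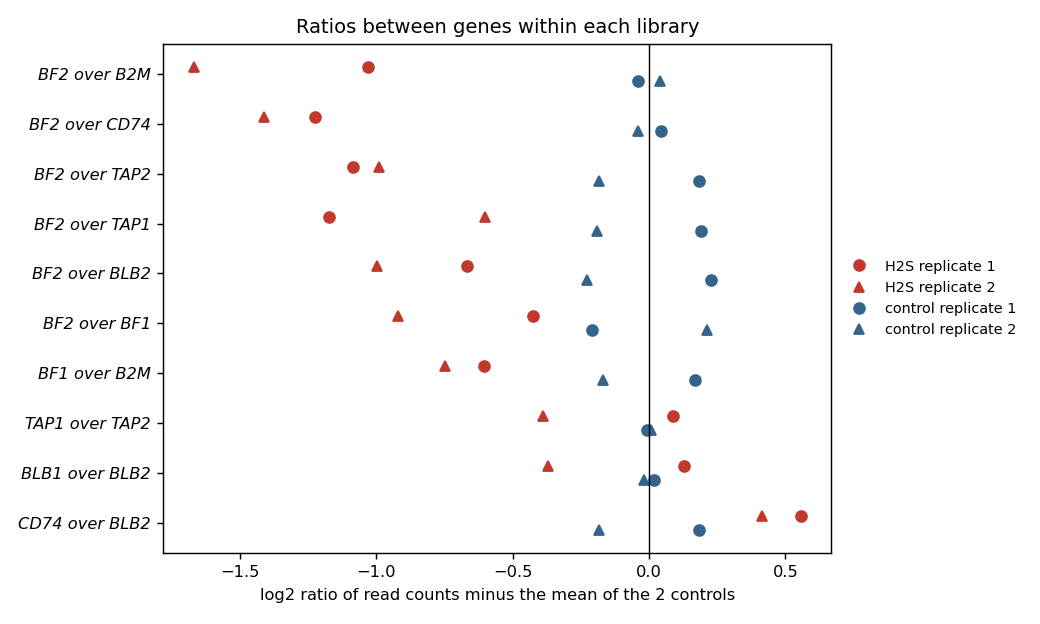
Log2 ratios of read counts between pairs of genes within each library, minus the mean of the 2 controls for that pair, with H2S libraries in red and drawn above the controls in blue. The 5 pairs with BF2 over B2M, CD74, TAP2, TAP1 or BLB2 have both H2S libraries left of both controls, while TAP1 over TAP2 and BLB1 over BLB2 overlap. BF2, which these 5 pairs share, had the lowest log2 fold change of the set.

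Of the 10 genes, 8 lie in 1 stretch of chromosome 16 in the RefSeq annotation of assembly GRCg7b, used here for gene order only. B2M is on chromosome 10 and CD74 on chromosome 13. The order of 12 neighbouring protein-coding genes was BLB1, TAPBP, BLB2, BRD2, DMA, DMB1, DMB2, BF1, TAP1, TAP2, BF2 and C4. The other 4 genes of the stretch are not among the 10. DMA, the alpha chain of DM, had 10.6 and 6.78 TMM CPM in the H2S libraries, against 18.9 and 12.9 TMM CPM in the controls (log2 fold change -0.87, SE 0.35; edgeR adjusted p = 0.91). BRD2, a chromatin reader of acetylated histones, had 135 and 147 TMM CPM in the H2S libraries, against 121 and 177 TMM CPM in the controls, and its groups overlapped (log2 fold change -0.080, SE 0.23; edgeR adjusted p = 1.0). The complement gene C4 had 10.5 and 9.77 TMM CPM in the H2S libraries, against 13.1 and 12.8 TMM CPM in the controls (log2 fold change -0.35, SE 0.22; edgeR adjusted p = 1.0). DMB1 had 6 to 20 reads in every library, and its values overlapped between groups.

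On the whole of chromosome 16, 46 other protein-coding genes of the annotation were tested. Their median log2 fold change was 0.087, 22 of them had a value below 0, and 6 were lower in both H2S libraries than in both controls, against 17.2% of all genes. At an unadjusted p under 0.05 in edgeR, 1 was lower and 3 were higher. Genes that overlap or have close copies there, such as DMA, DMB1 and the member DMB2, are uncertain. The use of strand and the counting of reads shared by copies are not stated.

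**Figure D3:**
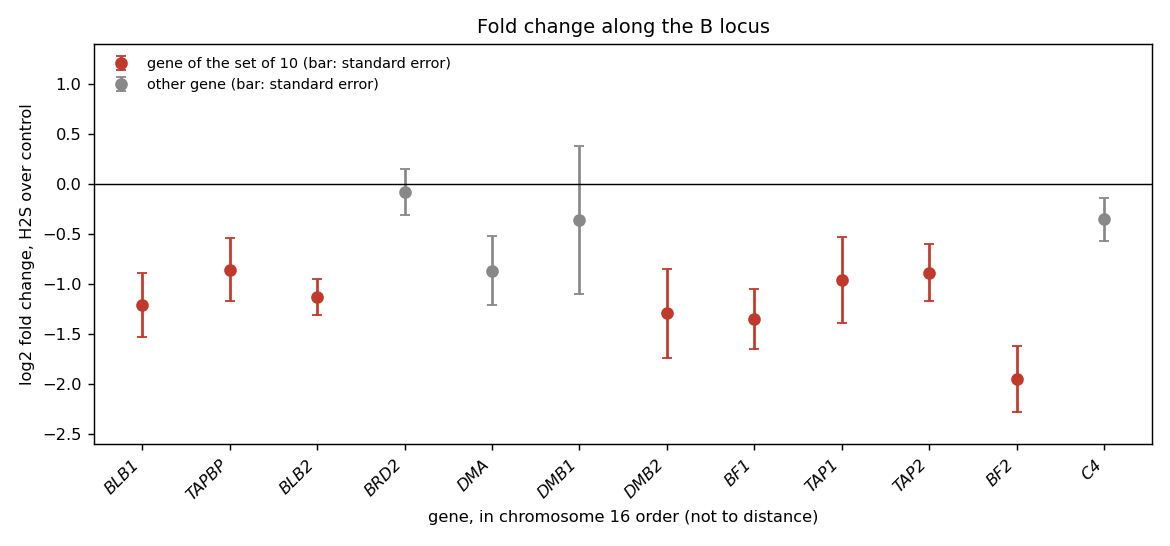
Log2 fold change, H2S over control, with its standard error for 12 neighbouring genes in their order on chromosome 16, with genes of the set of 10 in red and the others in grey. BF2 is the lowest at -1.95, and BRD2 lies at -0.080 between BLB2 at -1.13 and DMA at -0.87.

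The other genes of antigen presentation were read from 6 lists that hold none of the 10. Of the 55 listed genes tested, none had an edgeR adjusted p under 0.05. At an unadjusted p under 0.05 there were 10 lower and 1 higher, against 3.48% and 2.12% of all genes, and without H2S replicate 2 the 11 became 4. Their median log2 fold change was -0.31, and 19 of the 55 were lower in both H2S libraries than in both controls, against 17.2% of all genes. DESeq2 called BG8 and LAG3, with 0.83% of all genes called, and limma-voom called 0. The same shares of all genes, 3.48% lower and 2.12% higher, apply beside the unadjusted count of each list below. The lists, like the cell type markers below, were chosen with earlier results of these data known, so nothing is read from their counts.

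Of 17 genes for control of class II and for processing of its peptides, 3 were lower and 0 higher at an unadjusted p under 0.05, with a median log2 fold change of -0.28, which was -0.041 without H2S replicate 2. CIITA, the master regulator of class II genes and listed as LOC416633, had 71.4 and 37.8 TMM CPM in the H2S libraries, against 121 and 105 TMM CPM in the controls. Its groups did not overlap, with a log2 fold change of -1.05 (SE 0.34; edgeR adjusted p = 0.83). RFX5, which binds class II promoters with CIITA, had 12.2 and 8.45 TMM CPM in the H2S libraries, against 14.6 and 10.4 TMM CPM in the controls, with overlap. The alpha chain gene HLA-DRA, chosen after its values were seen, had 40.7 and 26.9 TMM CPM in the H2S libraries, against 76.1 and 43.3 TMM CPM in the controls. Its log2 fold change of -0.82 (SE 0.36; edgeR adjusted p = 0.96) lay between those of CD74 and BLB2.

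Among the processing enzymes, cathepsin S, CTSS, which trims the invariant chain, had 131 and 93.7 TMM CPM in the H2S libraries, against 208 and 158 TMM CPM in the controls (log2 fold change -0.70, SE 0.25; edgeR adjusted p = 0.86). IFI30, a lysosomal thiol reductase that unfolds antigens, had 40.7 and 34.0 TMM CPM in the H2S libraries, against 48.8 and 57.7 TMM CPM in the controls (log2 fold change -0.51, SE 0.19; edgeR adjusted p = 0.87). Neither overlapped between the groups. The most abundant genes of this list did overlap, cathepsin B (CTSB) at a log2 fold change of -0.070 (SE 0.15) and legumain (LGMN) at -0.014 (SE 0.20). Of the 17 genes, 7 were lower and 3 higher without overlap, against 17.2% and 15.3% of all genes. The 3 higher, named after their values were seen, were RFXANK, NFYB and CTSL2, the last at a log2 fold change of 0.44 (SE 0.21).

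Of 8 other genes for class I assembly, 0 had an unadjusted p under 0.05, and their median log2 fold change was -0.058. NLRC5, the regulator that drives class I genes, had 158 and 69.7 TMM CPM in the H2S libraries, against 149 and 174 TMM CPM in the controls. H2S replicate 1 lay within the control range and H2S replicate 2 well below it, at a log2 fold change of -0.50 (SE 0.41; edgeR adjusted p = 1.0). The chaperones calnexin, CANX, and PDIA3, which help to fold the heavy chain, stood at log2 fold changes of 0.15 (SE 0.17) and 0.13 (SE 0.20), each with an edgeR adjusted p of 1.0. The tapasin relative TAPBPL, chosen after its values were seen, had 23.8 and 13.2 TMM CPM in the H2S libraries, against 31.3 and 28.5 TMM CPM in the controls.

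Of 11 genes of interferon gamma signalling, the cytokine route that raises MHC expression, 2 were lower and 0 higher at an unadjusted p under 0.05. Their median log2 fold change was -0.077, and 0.031 without control replicate 2. IRF1, an interferon-induced factor that acts on class I promoters, had 183 and 122 TMM CPM in the H2S libraries, against 201 and 273 TMM CPM in the controls (log2 fold change -0.64, SE 0.28; edgeR adjusted p = 0.96). JAK1, the receptor kinase, overlapped between groups at a log2 fold change of -0.19 (SE 0.20).

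The 2 of this list with an unadjusted p under 0.05 were IFNG and IRF8, named after their values were seen. Interferon gamma itself, IFNG, had 11 and 5 reads in the H2S libraries, against 40 and 29 in the controls (log2 fold change -2.39, SE 0.57; edgeR adjusted p = 0.76). IRF8, a factor of B cells and dendritic cells, had 132 and 75.4 TMM CPM in the H2S libraries, against 224 and 195 TMM CPM in the controls (log2 fold change -1.01, SE 0.31; edgeR adjusted p = 0.83). The gap between the H2S libraries in NLRC5 ran the same way as in all 10 members. H2S replicate 2 was also below H2S replicate 1 in 38 of the 55 listed genes, against 52.6% of all tested genes. The part of interferon signalling in the level of the 10 genes was not tested.

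**Figure D4:**
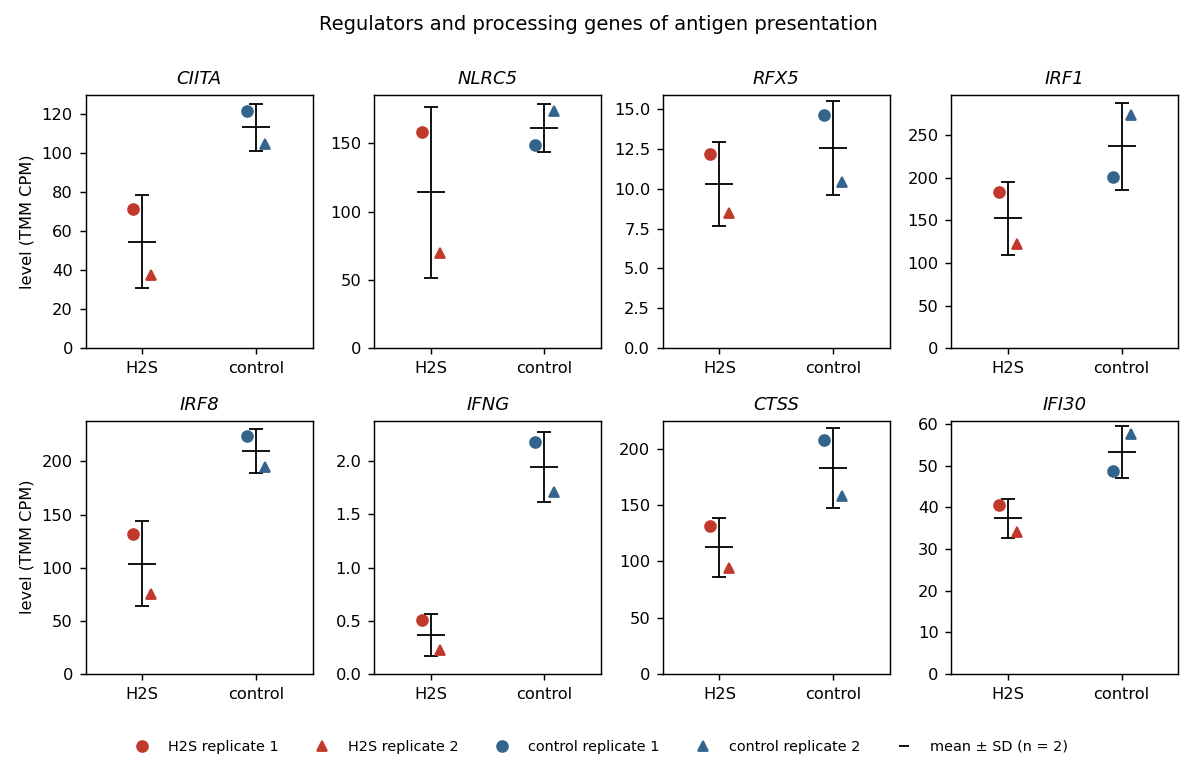
Levels in TMM CPM (linear axes from 0) of 8 genes that control MHC expression or process peptides, with H2S libraries left of controls and the mean ± SD (n = 2) of each group. NLRC5 is low only in H2S replicate 2 of the 4 libraries, at 69.7 TMM CPM, and RFX5 overlaps between the groups. CIITA, IRF8, IFNG, CTSS, IFI30 and IRF1 have both H2S libraries below both controls, as do 17.2% of all genes. IRF8 and IFNG were chosen after their values were seen. In the full lists, 7 of 17 class II control and processing genes, 3 of 11 interferon gamma genes and 1 of 8 class I assembly genes lie so.

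The complexes are read by T cell receptors, and 7 genes of these receptors and their helpers were tested. All 7 had a log2 fold change below 0, with a median of -0.63 that was -0.28 without control replicate 2, and 2 of the 7 had an unadjusted p under 0.05. The CD3 chain genes CD3E and CD3D stood at log2 fold changes of -0.63 (SE 0.26) and -0.71 (SE 0.27), with edgeR adjusted p-values of 0.91 and 0.88. LAG3, an inhibitory receptor for class II named after its values were seen, had 2.78 and 1.99 TMM CPM in the H2S libraries, against 9.37 and 12.2 TMM CPM in the controls (log2 fold change -2.18, SE 0.34; edgeR adjusted p = 0.57). The coreceptor for class II, CD4, overlapped between the groups at 21.3 and 12.5 TMM CPM in the H2S libraries, against 18.4 and 28.4 TMM CPM in the controls. So did CD8A, the coreceptor for class I, at 4.35 and 8.27 TMM CPM in the H2S libraries, against 5.50 and 9.49 TMM CPM in the controls.

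Of 7 costimulation genes of antigen presenting cells, CD83 and CD86 were lower at an unadjusted p under 0.05, with a median log2 fold change of -0.46 that was -0.19 without control replicate 2. CD83, which stabilises class II at the cell surface, had 38.3 and 38.4 TMM CPM in the H2S libraries, against 48.3 and 57.4 TMM CPM in the controls (log2 fold change -0.46, SE 0.17; edgeR adjusted p = 0.87). The inhibitory ligand CD274 had 55.0 and 25.5 TMM CPM in the H2S libraries, against 45.5 and 49.1 TMM CPM in the controls, which put H2S replicate 2 apart from the others.

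Of 5 tested genes for nonclassical class I molecules and for the B-G proteins, which are butyrophilin relatives encoded beside the chicken MHC, BG1 was lower and BG8 higher at an unadjusted p under 0.05. Their median log2 fold change was -0.79, and -0.044 without H2S replicate 2. BG8 had 6.11 and 8.14 TMM CPM in the H2S libraries, against 1.64 and 2.06 TMM CPM in the controls, opposite to the 10 genes (log2 fold change 1.94, SE 0.35; edgeR adjusted p = 0.62). CD1B, which presents lipids, had 4.40 and 2.17 TMM CPM in the H2S libraries, against 7.14 and 4.25 TMM CPM in the controls, with overlap. The 2 genes of these polymorphic families that varied most inside the groups were named for that after their values were seen. BG2 had 66 and 13 reads in the H2S libraries, against 113 and 2 reads in the controls. YF5 had 33 reads in H2S replicate 1 and 1 read in H2S replicate 2, against 4 reads in each control.

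Markers of the cells that carry class II were also compared, and edgeR and limma-voom called 0 of the markers of any cell type at an adjusted p under 0.05. DESeq2 called 7 markers, with 0.83% of all genes called. The B cell genes TNFRSF13B, POU2AF1 and IGJ and the macrophage and dendritic cell genes CYBB, FLT3 and XCR1 were lower. The epithelial gene KRT18, listed as LOC101749333, was higher. As with the lists above, nothing is read from this count. All 8 B cell markers tested were lower in both H2S libraries than in both controls, against 17.2% of all genes, with a summed level of 1117 and 928 TMM CPM in the H2S libraries, against 6114 and 4720 TMM CPM in the controls. Most of that sum was IGJ, the joining chain of secreted antibody, and the other 7 summed to 162 and 168 TMM CPM in the H2S libraries, against 280 and 385 TMM CPM in the controls. Of 11 macrophage and dendritic cell markers, 6 were lower without overlap and 0 higher, with a sum of 267 and 220 TMM CPM in the H2S libraries, against 326 and 341 TMM CPM in the controls. Of 10 T cell markers, 4 were lower without overlap, against the same 17.2%, with a sum of 172 and 153 TMM CPM in the H2S libraries, against 182 and 267 TMM CPM in the controls. Of 9 epithelial markers, 5 were higher without overlap, against 15.3% of all genes, and 1 lower, with a sum of 1705 and 1987 TMM CPM in the H2S libraries, against 1566 and 1501 TMM CPM in the controls. Of 7 endothelial markers, 3 were higher without overlap, against the same 15.3%, and 0 lower. Their sum was 1215 and 1020 TMM CPM in the H2S libraries, against 1227 and 971 TMM CPM in the controls. No matched marker was at 0 in all libraries, and the part of cell makeup in the level of the 10 genes was not tested.

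Profiles over the 4 libraries were compared by the Euclidean distance between centred log2 CPM values. Candidates were 10516 genes with a mean of at least 5 TMM CPM, with members and symbols starting with LOC left out. The genes nearest to BF2 were NAE1, a subunit of the neddylation enzyme, at 0.31 and the B cell gene TNFRSF13B at 0.32. Next were the guanylate-binding protein gene GBP at 0.41, biliverdin reductase BLVRA at 0.51 and the immunoglobulin light chain IGLL1 at 0.52. No other member was that near to BF2, the nearest being DMB2 at 0.78 and BLB1 at 0.78. The nearest genes were the best of 10516 candidates and the members are few, so this difference is not read. The genes nearest to BLB2 were GPRIN3 at 0.037, the lymphocyte adhesion gene CRTAM at 0.063, the spindle gene TPX2 at 0.067, the DNA repair exonuclease EXO1 at 0.068 and the interferon regulatory factor IRF5 at 0.11. Among the members themselves, CD74 and TAPBP were the nearest pair at 0.32, and BF2 and B2M the farthest at 1.43. With 4 libraries these distances are a description of these libraries alone.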

How the data were processed

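Read counts per gene for 4 trachea libraries were deposited by the authors in 1 table, with no normalization. The submitters' processing notes name the aligner HISAT2, without a version. The counter, build, annotation and strandedness are not stated there. Library totals were 22283320 and 22706119 reads for H2S replicates 1 and 2, and 17400644 and 16899066 for control replicates 1 and 2, so 1 read was worth 0.0452 to 0.0590 TMM CPM. No library was a copy of another (chi-square per degree of freedom 64.7 to 112). The lowest value was between H2S replicate 2 and control replicate 2, against 74.8 between the H2S libraries and 105 between the controls.

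Groups were compared with edgeR 4.0.16 in R 4.3.3 (filterByExpr, TMM, glmQLFit, glmQLFTest, no covariate, 2 residual degrees of freedom, two-sided, Benjamini-Hochberg adjustment over 16545 genes). The smallest adjusted p was 0.57. Standard errors are the absolute log2 fold change over the square root of F. Centred log2 CPM used a prior count of 2 and log2 ratios one of 0.5. Alternatives were DESeq2 1.42.0, limma 3.58.1 (voom), other scalings and filters, each library left out and a replicate term.

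The members and lists were chosen with earlier results of these data known. Genes named are the members, 7 regulators and processing genes fixed by name, the 2 most abundant of each list, and the 5 nearest to BF2 and to BLB2. 1 gene that this rule takes is not reported here. Others, and the ratios of BF2 and BF1 to B2M, BF2 to CD74, CD74 to BLB2 and TAP1 to TAP2, were chosen after the values were seen. RefSeq (GRCg7b) gave names, chromosomes and gene order. Of the listed symbols, 9 found no match in the table. No sequences were used.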

Additional observations from a re-analysis of the deposited data

How the results depend on the processing

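All 10 members had a log2 fold change below 0 under each of 11 alternatives. Their median ran from -1.37 to -0.74 when single libraries were left out, that of the class II genes from -1.49 to -0.89, and that of the class I and loading genes from -1.37 to -0.59. Of 110 member values under the alternatives, 104 moved by less than 1 SD between libraries and 6 by more. DESeq2 called 132 genes where edgeR called 0. Leaving out single libraries put the genes at an unadjusted p under 0.05 between 564 and 1339, against 926 with all 4, and the related genes between 4 and 15, against 11.

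The median over all genes was -0.071 with library totals and -0.021 to 0.032 with single libraries left out. List medians with a library left out ran from -0.32 to -0.041 for class II control and processing, from -0.18 to 0.031 for interferon gamma signalling, from -1.13 to -0.044 for nonclassical and B-G genes, from -0.90 to -0.28 for T cell receptors and from -0.63 to -0.19 for costimulation. The log2 ratio differences ran from -0.37 to 0.13 for BLB1 over BLB2 and from -0.39 to 0.087 for TAP1 over TAP2, which changed sign without H2S replicate 2. Beyond fewer libraries, the cause was not tested.

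The correlation between the groups' replicate differences was -0.0020 over 16545 genes. Replicate 1 had the high W share in the H2S group and the low one in the controls. The correlation therefore cannot show whether replicate numbers pair the libraries. With the replicate block edgeR called 0 genes, 1032 had an unadjusted p under 0.05, and the members' median was -1.11. Leaving a library out leaves an arm with 1, assumed to vary like the others.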
